A study of Mus musculus with 51 samples.

Results

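The receptor Smads *Smad1*, *Smad2*, *Smad3*, *Smad5* and *Smad9* and the common partner *Smad4* were taken by gene symbol from the RNA-seq tables of Bmp4-induced mesoderm formation, 6 of the 24538 genes listed in each table. Smads carry signals of the TGFβ superfamily from the membrane to the nucleus. Type I receptors of BMP ligands phosphorylate Smad1, Smad5 and Smad9, those of Nodal, Activin and TGFβ phosphorylate Smad2 and Smad3, and the phosphorylated proteins pair with Smad4 to bind DNA. In the early mouse embryo the BMP branch acts in proximal epiblast and extra-embryonic mesoderm and the Nodal branch in mesoderm and endoderm of the primitive streak. The inhibitory Smads *Smad6* and *Smad7*, which are themselves switched on by these pathways, are given beside the 6 members for comparison. The values are transcript levels, and phosphorylation, which sets the activity of receptor Smads, is not measured by them.

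RNA was sequenced from mouse embryonic stem cells (mESCs) of the F1G4 line and from cells differentiated from them as aggregates in medium with 20 ng/ml Bmp4. F1G4 wild-type (WT) cells were taken as aggregates before Bmp4 was added (ES) and on days 1, 2 and 3. *Eomes* KO and *T* KO cells, each a clone made from F1G4 cells with paired Cas9(D10A) nickases around the promoter and first exon, and *Eomes*/*T* double knockout (dKO) cells, made from *Eomes* KO cells, were taken on days 2 and 3 under the same Bmp4 regime. *Eomes* and *T* encode T-box factors of early mesoderm. *Smad4* WT cells carry loxP-flanked (conditional) *Smad4* alleles on a 129S/SvEv × C57BL/6 background, *Smad4* KO cells are clones in which Cre had removed the floxed first exon, and both were taken on days 1 and 2. All lines had been grown on feeder cells, which were removed before differentiation. The tables hold 1 FPKM value (fragments of RNA scaled to transcript length and to library size) for each gene in each of 14 conditions. By the labels the F1G4 WT stages had 2 samples each and every other condition 1. The study describes its values as averages of replicates, so the number of libraries behind a KO value is unclear. The spread between replicates and the sequencing depth are unknown, no test could be made, and each difference below is a comparison of single values. FPKM is scaled to transcript length, so that levels of different Smads can be set side by side as far as the lengths used are right.

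A gene was examined where FPKM exceeded 1 in either of the conditions compared, and a difference was called past 2-fold, at a log2 ratio over 1 or under −1. The rule follows that of the study. The interquartile range of log2 ratios of examined genes was 0.84 in the *Eomes* KO on day 3 and in the *T* KO on day 2, against 0.35 to 0.67 in the other 6 KO comparisons, so these columns stood apart from the rest. The *Eomes* KO, *T* KO and dKO of a day were compared with the same F1G4 WT libraries and are not independent of each other. The targeted genes were low but not absent on day 2, with *Eomes* at 2.42 in the *Eomes* KO (WT 9.42) and *T* at 6.64 in the *T* KO (WT 44.8), and on day 3 they were at 0.276 (WT 20.3) and 3.00 (WT 323). The F1G4 WT course went from 0.0784 to 320 for *T* between ES and day 3, while the pluripotency factor *Pou5f1* went from 1002 to 465. Of the fibroblast collagens and *Postn*, which would mark leftover feeder cells, none exceeded 1.46 in any condition.

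On the GRCm38 assembly *Smad3* lies at chr9:63646766-63757994. *Smad6* lies on chromosome 9 as well, at chr9:63953076-64022085, on the same strand as *Smad3*. The upstream sequences of these neighbours are shown because *Smad3* varied most among the 5 examined members and *Smad6* was among the genes lower in the *Smad4* KO. They are RefSeq sequences of the minus strand of GRCm38.p6, 5′ to 3′, from chr9:63757995-63758244 for *Smad3* (250 bases, 69.2% G or C) and from chr9:64022086-64022309 for *Smad6* (224 bases, 66.5% G or C).
Smad3: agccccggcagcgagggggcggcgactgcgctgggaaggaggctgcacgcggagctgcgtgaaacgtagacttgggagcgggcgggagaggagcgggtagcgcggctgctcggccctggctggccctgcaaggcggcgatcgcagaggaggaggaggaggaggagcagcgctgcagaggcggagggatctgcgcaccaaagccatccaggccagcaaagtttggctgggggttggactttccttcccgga
Smad6: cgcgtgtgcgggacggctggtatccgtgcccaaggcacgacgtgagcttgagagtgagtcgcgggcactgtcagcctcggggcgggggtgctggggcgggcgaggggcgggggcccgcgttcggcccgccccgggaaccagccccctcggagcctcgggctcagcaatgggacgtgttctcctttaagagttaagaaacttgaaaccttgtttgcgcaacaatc
Both strands were searched for the Smad box CAGAC, the GC-rich Smad motif GGCGCC and the T-box core AGGTGT, which would have been set in capitals, and neither sequence held any of them. Of the 250 bases upstream of all 32851 RefSeq promoters, 42.2% held CAGAC, 9.59% GGCGCC and 11.8% AGGTGT. These letters being missing from a short window says nothing about binding elsewhere in either gene.

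The other members are spread over the genome. *Smad1* lies at chr8:79338395-79399428, *Smad5* at chr13:56703010-56742378, *Smad9* at chr3:54755455-54801662, and *Smad2* and *Smad4* share a chromosome, at chr18:76241090-76311748 and chr18:73634790-73703791.

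*Smad4* had the highest FPKM of the 6 genes in all 14 conditions and *Smad9* the lowest. *Smad1* was second in 12 of 14, and the most frequent order, *Smad4*, *Smad1*, *Smad2*, *Smad5*, *Smad3* and *Smad9*, was found in 8. The order changed with time in F1G4 WT cells: *Smad2* stood above *Smad1* in ES (10.8 against 8.57) and below it from day 1 on (10.8 against 12.9), and on day 3 *Smad5* stood above *Smad2* (11.1 against 10.0). With 1 value per condition, neighbours as close as *Smad5* and *Smad2* on day 3 cannot be ordered with confidence. In the *Eomes* KO on day 3 *Smad3* was second at 17.8, followed by *Smad5* at 17.1, *Smad1* at 16.4 and *Smad2* at 12.6.

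**Figure D1:**
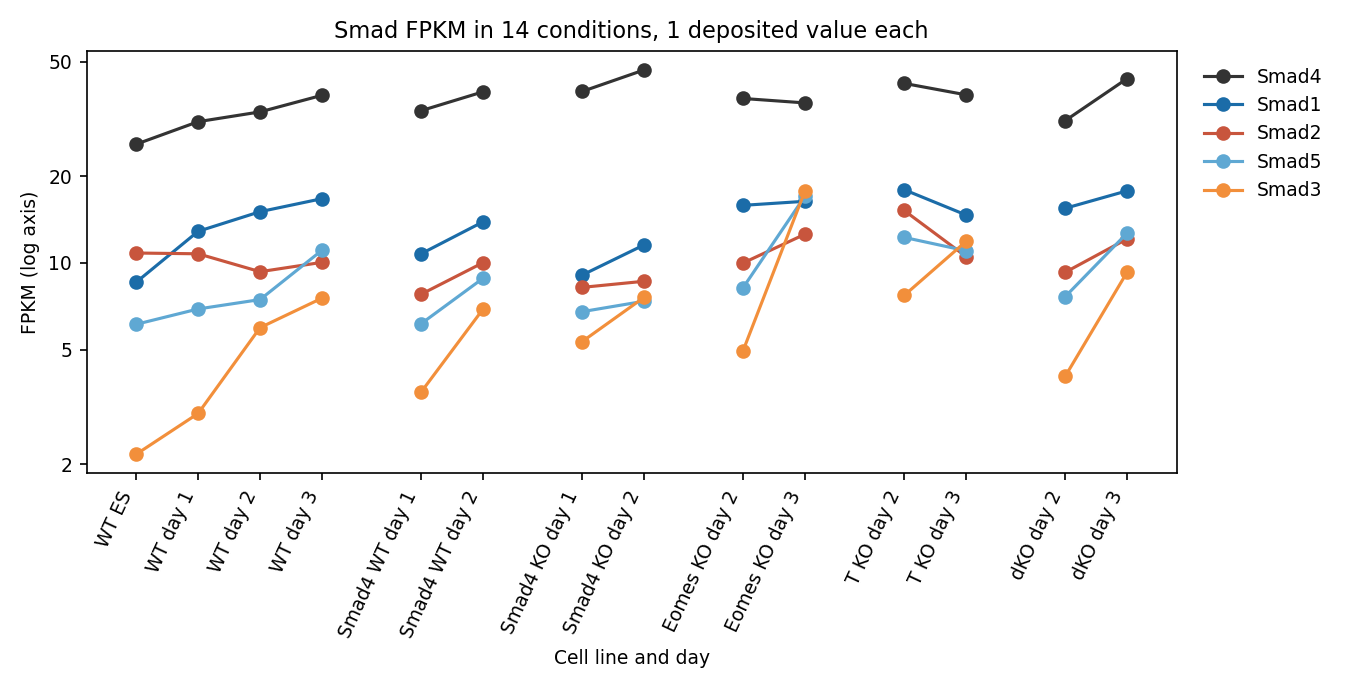
FPKM (log axis) of *Smad1*, *Smad2*, *Smad3*, *Smad4* and *Smad5* in the 14 conditions, 1 deposited value per point, with lines joining the days of a cell line. *Smad4* lies between 25.8 and 46.8 throughout, whereas *Smad3* goes from 2.17 in F1G4 ES cells to 17.8 in the *Eomes* KO on day 3. *Smad9* (0 to 0.370) is not drawn.

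*Smad1*, a BMP-branch Smad, stood in F1G4 WT cells at FPKM 8.57 in ES, 12.9 on day 1, 15.1 on day 2 and 16.7 on day 3, each stage above the one before. Its log2 ratio to ES was 0.59, 0.81 and 0.96 on the 3 days, just short of the 2-fold rule on day 3 (1.95-fold). *Smad5*, which shares most functions with *Smad1*, stood at 6.12, 6.92, 7.46 and 11.1 (log2 ratio to ES 0.18, 0.29 and 0.85), with its largest step from day 2 to day 3. *Smad1* exceeded *Smad5* in 13 of 14 conditions, by 1.40-fold in ES and 2.02-fold on day 2 of the WT course, and the ratio was below 1 (0.958) only in the *Eomes* KO on day 3. *Smad9* was at 0.0237, 0.192, 0.0722 and 0.0691 on the WT course and reached at most 0.370 (*T* KO, day 2). It was listed at 0 in the *Smad4* KO on day 1, and as it stayed under FPKM 1 everywhere it was not examined in any comparison.

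*Smad3*, the Nodal-branch Smad that binds DNA directly, stood at 2.17 in ES, 3.00 on day 1, 5.96 on day 2 and 7.55 on day 3. It was called higher than in ES on day 2 (log2 ratio 1.46) and day 3 (1.80, 3.48-fold), as the only one of 5 examined members, and not on day 1 (0.47). Over all examined genes 13.5% were called on day 1, 23.3% on day 2 (14.2% higher) and 31.1% on day 3 (18.5% higher), so that 1 call among 5 members is near the background. The other Nodal-branch Smad, *Smad2*, stood at 10.8, 10.8, 9.32 and 10.0, with log2 ratios to ES between −0.22 and −0.01. In such bulk samples more cells that express *Smad3* and more *Smad3* RNA per cell cannot be told apart.

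The balance within the Nodal branch lay on the side of *Smad2* in ES and closer to *Smad3* at each later stage. In F1G4 WT cells the *Smad2* FPKM was 5.00 times the *Smad3* FPKM in ES, 3.58 times on day 1, 1.56 times on day 2 and 1.33 times on day 3. A lower ratio on the later day was seen in each of the other 5 lines as well. From day 1 to day 2 it went from 2.19 to 1.45 in *Smad4* WT and from 1.54 to 1.14 in *Smad4* KO cells. From day 2 to day 3 it went from 2.02 to 0.707 in the *Eomes* KO, from 1.97 to 0.886 in the *T* KO and from 2.30 to 1.31 in the dKO. *Smad3* exceeded *Smad2* in only 2 conditions, the *Eomes* KO and the *T* KO on day 3. As a ratio of 2 genes in a column, this measure does not depend on how the columns were scaled to each other.

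**Figure D2:**
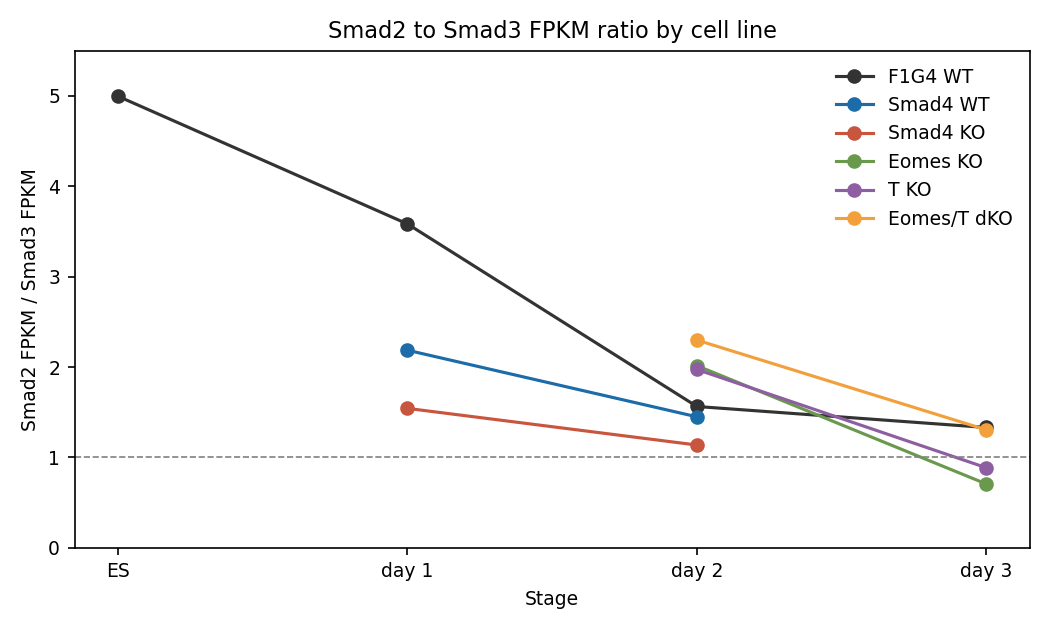
Ratio of *Smad2* to *Smad3* FPKM (linear axis from 0) by stage in the 6 cell lines, 1 deposited value per point. The ratio goes from 5.00 to 1.33 along the F1G4 WT course and is lower on the later day in every line. The dashed line marks equal FPKM, and only the *Eomes* KO (0.707) and *T* KO (0.886) on day 3 lie below it.

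*Smad4*, the partner shared by both branches, stood at 25.8 in ES, 30.9 on day 1, 33.4 on day 2 and 38.2 on day 3 of the WT course (log2 ratio to ES 0.26, 0.37 and 0.56), without a call. Its level was close to that of the 5 receptor Smads together, 0.932 times their sum in ES and 0.840 times on day 3, while that sum went from 27.7 to 45.4. Over the 14 conditions the ratio of *Smad4* to the receptor Smads had a median of 0.900, with its lowest value in the *Eomes* KO on day 3 (0.562) and its highest in the *Smad4* KO (1.34 on day 1, 1.33 on day 2).

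The BMP-branch Smads made up 53.1% of receptor Smad FPKM in ES, 59.2% on day 1, 59.7% on day 2 and 61.3% on day 3 of the WT course. Over all 14 conditions this share ran from 52.5% in the *Eomes* KO on day 3 to 63.6% in the dKO on day 2, with a median of 58.1%. In the *Smad4* line it was 60.0% on day 1 and 57.4% on day 2 in WT cells, and 53.9% and 53.8% in the KO. In the *T* KO it was 57.2% on day 2 and 53.5% on day 3. The branch shares thus varied less over the conditions than the ratio of *Smad2* to *Smad3*.

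**Figure D3:**
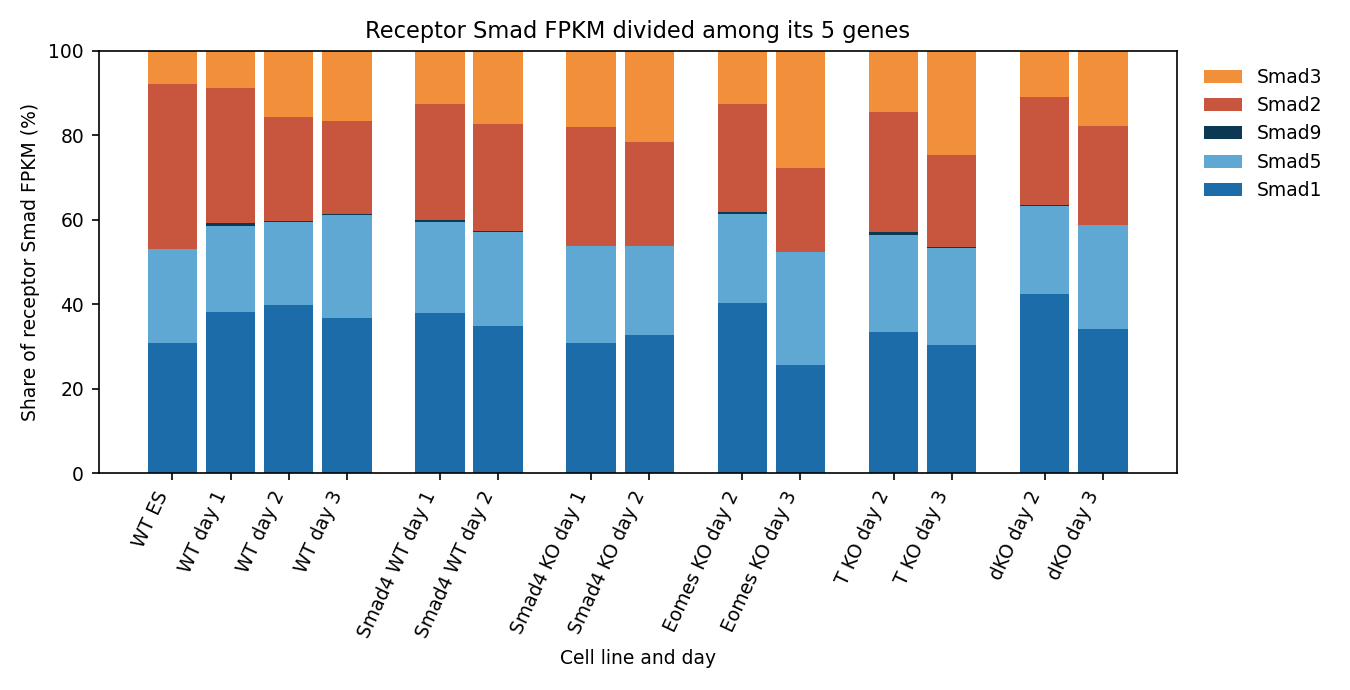
Share of each receptor Smad in the summed receptor Smad FPKM (%) in the 14 conditions, stacked from *Smad1* at the bottom to *Smad3* at the top, 1 deposited value per condition. The blue BMP-branch part ends between 52.5% and 63.6%, and the *Smad3* part is smallest in F1G4 ES cells and largest in the *Eomes* KO on day 3.

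As a yardstick for cells without a knockout, the WT cells of the *Smad4* line, whose *Smad4* alleles are loxP-flanked, were set against F1G4 WT cells of the same day. This comparison holds line and table differences too. The log2 ratio of the *Smad4* line to F1G4 was −0.26 for *Smad1*, −0.47 for *Smad2*, 0.25 for *Smad3*, 0.13 for *Smad4* and −0.17 for *Smad5* on day 1. On day 2 it was −0.12, 0.10, 0.21, 0.23 and 0.25 in the same order. Differences of up to 0.47 on the log2 scale were thus met between WT cells. The interquartile range over all genes was 0.73 on day 1 and 0.47 on day 2 in this comparison.

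In the *Smad4* KO none of the 5 examined members was called on either day, against 4.77% of 11232 examined genes on day 1 and 5.77% of 10999 on day 2. *Smad4* itself stood at 39.4 in the KO and 33.8 in WT cells on day 1 (log2 ratio 0.22) and at 46.8 and 39.3 on day 2 (0.25). These values check little of the deletion, because FPKM is taken over the whole gene. In the RefSeq mRNA of 7614 bases, exon 1, which is non-coding, holds 4.75% of the bases, exon 2 with the start codon 4.95% and exon 12 alone 74.6%. The longest GENCODE transcript ends earlier, at 3384 bases, of which these exons hold 10.4%, 11.1% and 43.2%. In either annotation a transcript without its first exon would keep most of its length. The study gives its FPKM values for RefSeq genes. The release and the length that entered the deposited *Smad4* values are not given in the sources used here, and the level of *Smad4* relative to other genes depends on that length. Which exon lies between the loxP sites is not given beyond the word first. *Smad3* stood at 5.33 in the KO and 3.56 in WT cells on day 1, a log2 ratio of 0.58, and 93.6% of examined genes had a lower ratio. This exceeded the 0.25 by which the WT lines differed for *Smad3* on that day, but on day 2 it stood at 7.59 and 6.91 (0.14). *Smad1* was lower on both days, at 9.07 against 10.8 (−0.25) and 11.5 against 13.9 (−0.27), about as far as the WT lines differed on day 1 (−0.26). *Smad2* (0.08 and −0.21) and *Smad5* (0.14 and −0.26) had opposite signs on the 2 days. The summed level of the neural markers *Sox1* and *Pax6* was higher in the *Smad4* KO, at 7.27 on day 1 (WT 1.16) and 14.0 on day 2 (WT 0.680), and its part in the Smad values was not tested.

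The inhibitory Smads differed far more in the *Smad4* KO than the 5 examined members did. *Smad7* stood at 2.84 in the KO against 14.9 in WT cells on day 1 (log2 ratio −2.40) and at 2.18 against 10.2 on day 2 (−2.22), and was called lower on both days. *Smad6* stood at 1.09 against 3.13 on day 1 (−1.53) and at 1.68 against 2.98 on day 2 (−0.83), and was called lower on day 1. Of all examined genes 2.41% were called lower on day 1 and 3.21% on day 2. On the F1G4 WT course *Smad6* had been called higher than in ES on each day (0.618 in ES, 2.59, 4.10 and 4.62 on days 1 to 3), while *Smad7* was at 15.4, 11.9, 14.0 and 8.20 without a call.

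The pathway around the Smads was read from 8 lists with 56 genes, chosen from general knowledge of the pathway. In the *Smad4* KO 14 of 49 examined genes were called on day 1 (28.6%, against 4.77% of all examined genes) and 13 of 49 on day 2 (26.5%, against 5.77%), all of them lower. Of all examined genes 2.41% were called lower on day 1 and 3.21% on day 2. Of the 10 listed transcriptional targets, all examined, 9 were called lower on each day. The median log2 ratio of the 10 was −2.64 on day 1 and −3.28 on day 2, where the median of all examined genes was 0.00 and −0.01. The mesodermal markers *Eomes*, *T* and *Mixl1* summed to 1.83 in the KO and 4.86 in WT cells on day 1 and to 2.67 and 52.5 on day 2, while the neural markers were higher as given above, and their part in the target counts was not tested. The list holds known targets of both branches. On day 1 *Id1*, an inhibitor of bHLH factors and a direct BMP target, was at 2.14 against 77.1 in WT cells (−5.17), and the BMP-induced homeobox genes *Msx2* (0.116 against 2.51, −4.43) and *Msx1* (0.282 against 3.88, −3.78) were also lower. Of the Nodal targets, the secreted Nodal antagonist *Lefty2* was at 3.50 against 23.7 (−2.76). The tenth target, the pseudoreceptor gene *Bambi*, was at 1.85 against 3.23 (−0.80) on day 1.

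Among receptors and ligands, the genes called in the *Smad4* KO were *Tdgf1*, the Nodal co-receptor (17.5 against 126 on day 1 and 3.30 against 187 on day 2), *Nodal* (5.96 against 25.6 and 2.53 against 32.4) and, on day 1, the BMP type I receptor *Acvr1* (0.724 against 1.57). *Nodal* and *Tdgf1* code for the ligand and co-receptor that act upstream of Smad2 and Smad3. The other examined receptors had no call: *Bmpr1a*, the main BMP type I receptor here, was at 30.6 against 29.5 on day 1 and 34.9 against 37.9 on day 2, and the type I receptor *Tgfbr1* at 17.1 against 16.2 and 21.6 against 19.3. None of the 6 corepressors and none of the 12 ubiquitin ligases, deubiquitinases and phosphatases that act on Smads was called on either day, and of 8 DNA-binding partners and adaptors 1 was, *Zfp423* on day 2 (4.08 against 10.2). Over all examined genes 4.77% were called on day 1 and 5.77% on day 2, so few or no calls in lists this short are near the background. *Zfp423* codes for a zinc finger partner of BMP-branch Smads.

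**Figure D4:**
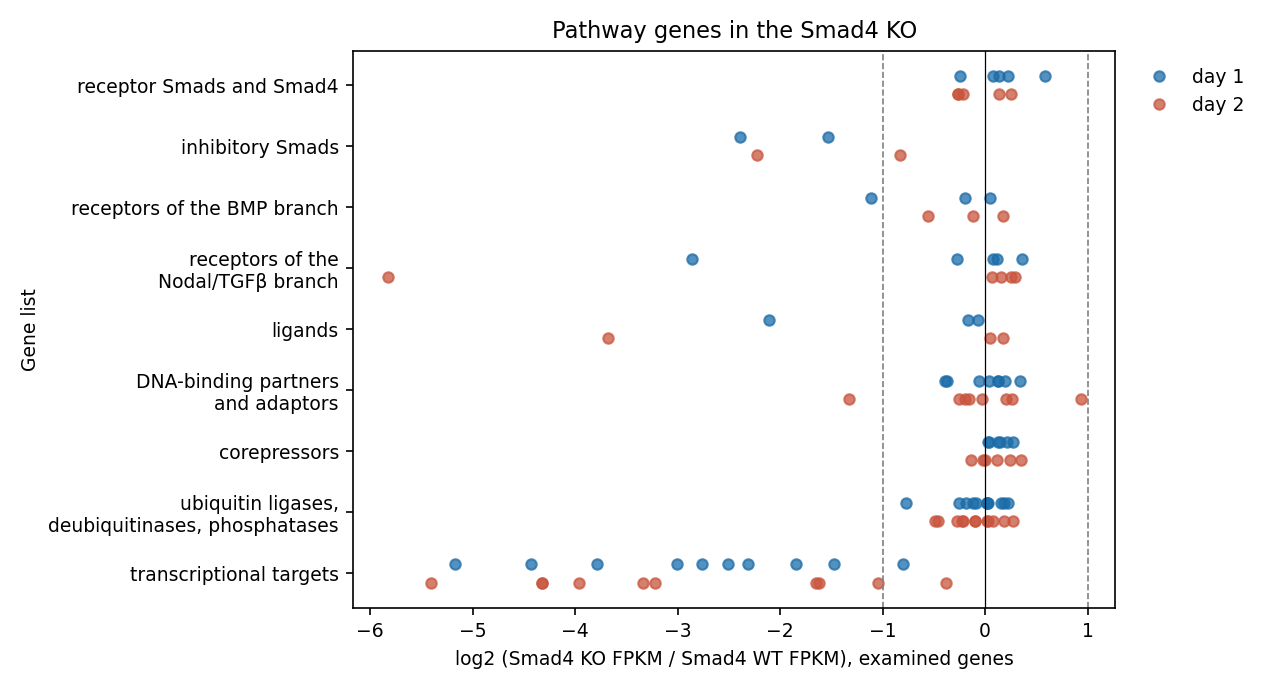
Log2 ratio of *Smad4* KO to *Smad4* WT FPKM of the examined genes of each list on day 1 (blue) and day 2 (red), 1 point per gene and day, with dashed lines at the 2-fold rule. The 5 examined receptor Smads and *Smad4* lie between −0.27 and 0.58, and 9 of 10 transcriptional targets lie to the left of −1 on each day.

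In the *Eomes* KO no member was called on day 2, against 7.52% of examined genes, and 1 of 5 on day 3, against 16.4% (7.39% higher). The call was *Smad3*, at 17.8 against 7.89 in WT cells on day 3 (log2 ratio 1.18, 2.26-fold), where 94.9% of examined genes had a lower ratio. On day 2 it had stood slightly lower, at 4.96 against 5.91 (−0.25). On day 3 *Smad5* was at 17.1 against 11.6 (0.56) and *Smad2* at 12.6 against 10.5 (0.26), whereas *Smad1* (−0.09) and *Smad4* (−0.15) were close to WT. This column is one of those that stood apart. Relative to genes of like GC content the *Smad3* log2 ratio was 1.21, relative to genes of like transcript length 1.10, and relative to the other genes of chromosome 9 1.16. The summed feeder markers were highest in this condition (3.43, against 0.0928 to 1.92 in the others). This sum was also higher on day 3 (1.49) than in ES (0.0928) along the F1G4 WT course. The neural markers *Sox1* and *Pax6* summed to 6.44 (WT 0.239). The part of either marker set in the *Smad3* value was not tested.

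In the *T* KO no member was called on either day, against 15.6% of examined genes on day 2 and 6.04% on day 3. On day 2, the other column that stood apart, all 5 members were above WT, with log2 ratios from 0.21 for *Smad1* to 0.66 for *Smad2* (15.2 against 9.62) and 0.67 for *Smad5* (12.3 against 7.69). Relative to genes of like GC content the latter were both 0.77, and relative to genes of like transcript length 0.59 and 0.63. On day 3 *Smad3* was at 11.9 against 7.62 (0.64), with 94.5% of examined genes lower, and the other 4 lay between −0.20 and 0.05. In the dKO no member was called either, against 7.99% of examined genes on day 2 and 11.0% on day 3. *Smad3* was at 4.03 against 5.90 (−0.55) on day 2 and at 9.28 against 7.84 (0.24) on day 3, and the other 4 members lay between −0.09 and 0.22. *Smad3* thus lay below WT on day 2 in both lines without *Eomes* and above WT on day 3 in all 3 lines. The F1G4 WT columns are shared by the lines and the dKO was made from *Eomes* KO cells, so these are not 3 separate observations. The −0.25 (*Eomes* KO, day 2) and 0.24 (dKO, day 3) were about as large as the WT-line difference for *Smad3* on day 1 (0.25). The neural markers *Sox1* and *Pax6* summed to 4.79 on day 2 and 1.05 on day 3 in the *T* KO and to 9.40 and 10.5 in the dKO (WT 0.303 and 0.239), and their part in these values was not tested.

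**Figure D5:**
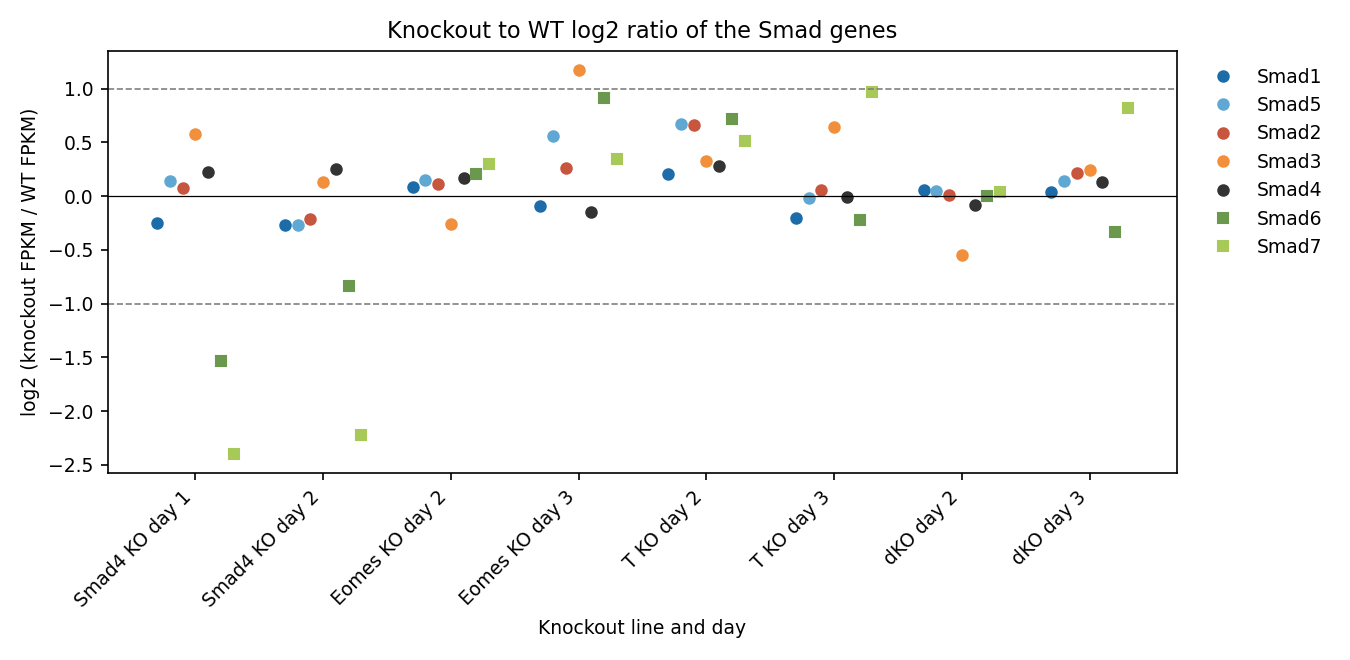
Log2 ratio of KO to WT FPKM of the Smad genes in the 8 KO comparisons, 1 point per gene, with circles for the examined members, squares for the inhibitory Smads and dashed lines at the 2-fold rule. Among the members only *Smad3* in the *Eomes* KO on day 3 (1.18) lies outside the lines, while *Smad7* reaches −2.40 and *Smad6* −1.53 in the *Smad4* KO.

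Of 40 log2 ratios of the examined members to WT in the 8 KO comparisons, 1 was called. Over all examined genes the share called in these comparisons ran from 4.77% to 16.4%. The comparisons with F1G4 cells of a day share their WT libraries, so the 40 values are not independent. *Smad4* had the narrowest range, from −0.15 (*Eomes* KO, day 3) to 0.28 (*T* KO, day 2). *Smad3* had the widest, from −0.55 (dKO, day 2) to 1.18. *Smad1* ran from −0.27 (*Smad4* KO, day 2) to 0.21 (*T* KO, day 2). *Smad1* lies on chromosome 8, whose examined genes had a median log2 ratio of 0.18 and 0.22 in the *Eomes* KO, 0.21 and 0.23 in the *T* KO and 0.17 and 0.22 in the dKO on days 2 and 3. In the *Smad4* KO this median was 0.00 and −0.01. Relative to that median *Smad1* lay between −0.43 (*T* KO, day 3) and 0.00 (*T* KO, day 2) in the 6 comparisons with F1G4 cells. For *Smad2* and *Smad4*, both on chromosome 18, the chromosome median was lowest in the *Eomes* KO on day 3 (−0.19).

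The inhibitory Smads had no call in the other 3 KO lines. In the *Eomes* KO on day 3 *Smad6* was at 9.06 against 4.82 (log2 ratio 0.91), its highest level in any condition. *Smad7* was at 16.2 against 8.27 in the *T* KO on day 3 (0.97) and at 15.0 against 8.51 in the dKO on day 3 (0.82), just short of the 2-fold rule in the former. On day 2 *Smad7* had been at 20.5 in the *T* KO and 14.2 in the dKO, so that the dKO lacked the lower day 3 value seen on the WT course.

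Of the 56 pathway genes, those examined gave 5 calls of 49 in the *Eomes* KO on day 2 (10.2%, against 7.52% of all examined genes) and 11 of 52 on day 3 (21.2%, against 16.4%). In the *T* KO 5 of 49 were called on day 2 (10.2%, against 15.6%) and 8 of 52 on day 3 (15.4%, against 6.04%), and in the dKO 5 of 49 (10.2%, against 7.99%) and 8 of 52 (15.4%, against 11.0%). Apart from the *T* KO on day 3, these shares are near the background, and in the *T* KO on day 2 the share lies below it. In the *Eomes* KO on day 2, 4 of 10 transcriptional targets were called higher, against 3.35% of all examined genes. They were *Msx2* (10.5 against 3.24), *Lefty1* (43.4 against 17.0), *Id3* (94.7 against 40.0) and *Id1* (105 against 51.4). *Sox1* and *Pax6* summed to 11.7 in this condition (WT 0.303), and their part in these calls was not tested. On day 3, 5 of 10 were called lower, against 9.01% of all examined genes, with *Msx1* at 1.32 against 10.2, *Lefty2* at 6.07 against 41.1 and *Lefty1* at 4.55 against 14.9. *Tdgf1* (97.8 against 558) and *Nodal* (8.31 against 32.1) were also lower, and *Zfp423* (10.6 against 2.85) was higher. This column stood apart, with the neural markers at 6.44 (WT 0.239), the mesodermal markers *Eomes*, *T* and *Mixl1* at 4.76 (WT 355) and the feeder markers at 3.43 (WT 1.49), and their part in these calls was not tested. In the condition with the most *Smad3* the Nodal ligand, its co-receptor and both *Lefty* genes were thus low. The condition with the next highest *Smad3*, the *T* KO on day 3 (11.9), did not share this. There *Nodal* (37.1) and *Tdgf1* (380) had no call. *Lefty1* was called higher there (39.1 against 14.4) and *Lefty2* lower (13.6 against 39.7).

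In the *T* KO the largest differences on day 2 were those of *Msx2* (10.4 against 3.37) and *Msx1* (13.8 against 5.60), and on day 3 those of the ligand gene *Tgfb1* (0.393 against 1.82), *Lefty2* (13.6 against 39.7) and *Lefty1* (39.1 against 14.4). *Lefty1* and *Lefty2*, which lie in the same family of Nodal antagonists, thus lay on opposite sides of WT on day 3. In the dKO they were *Msx2* (9.77 against 3.23) and the phosphatase gene *Ctdspl* (0.743 against 1.91) on day 2, and *Msx1* (2.17 against 10.2), the ligand gene *Gdf3* (9.49 against 2.32) and *Zfp423* (8.30 against 2.84) on day 3.

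Along the F1G4 WT course 13 of 46 examined pathway genes were called on day 1 relative to ES (28.3%, against 13.5% of all examined genes), 17 of 50 on day 2 (34.0%, against 23.3%) and 18 of 52 on day 3 (34.6%, against 31.1%), the last of these near the background. On day 3 the BMP-induced genes *Msx2* (9.21 against 0.0165 in ES) and *Msx1* (9.84 against 0.0647) were higher. *Bmp4*, the ligand that was added to the medium, was transcribed at 13.0 in ES, 0.569 on day 1, 0.543 on day 2 and 2.68 on day 3. *Gdf3*, a Nodal-like ligand of pluripotent cells, was at 23.2, 15.8, 10.9 and 2.23. *Nodal* was at 14.1, 9.91, 32.1 and 30.8, and called higher on days 2 and 3. The BMP type I receptor *Acvr1* (1.03 in ES, 2.37 on day 3) and the type II receptor *Tgfbr2* (0.292 and 1.41) were the only receptor genes called on day 3.

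Over all 14 conditions the highest *Smad3* FPKM was 8.22 times the lowest, and 95.7% of the 9208 genes above FPKM 1 in every condition had a smaller ratio. *Smad4* was among the steadier genes, with a ratio of 1.81 (17.8% of genes smaller), followed by *Smad2* with 1.95 (25.9%) and *Smad1* with 2.10 (34.1%). *Smad5* stood at 2.79 (63.8%), above the median gene at 2.41. For comparison the ratio of *Smad7* was 9.40 and its lowest value lay in the *Smad4* KO on day 2.

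Between members, levels went together to different degrees over the 14 conditions, which share lines, tables and WT cells and are given as a description. On log2(FPKM + 0.1), *Smad3* and *Smad5* had a Pearson r of 0.87 (Spearman rho 0.84) and *Smad1* and *Smad5* of 0.76 (0.89), whereas *Smad2* and *Smad3* reached 0.39 (0.42) and *Smad2* and *Smad4* 0.11 (0.02). In the 10 conditions of F1G4 cells *Smad1* and *Smad4* had an r of 0.88, against 0.39 in all 14. *Smad3* thus had a higher r with *Smad5* of the BMP branch than with *Smad2* of its own branch.

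Among 9284 genes with FPKM of at least 5 in one condition or more, those whose log2(FPKM + 0.1) was most like *Smad3* over the 14 conditions were *Erbb2* (r = 0.98), *Lrrc1* (0.97) and *Zswim8* (0.97). *Smad5* was most like *Tanc2* (0.97), *Zmiz1* (0.96) and *Tmem115* (0.96), and *Smad1* most like *Arhgef5* (0.94), *Cdc42ep5* (0.93) and the BMP-induced *Msx2* (0.92). *Smad2* was most like *Trappc10* (0.93), *Map1s* (0.91) and *Eefsec* (0.91), and *Smad4* most like *Ccdc71l* (0.90), *Itgb8* (0.90) and *Hip1r* (0.87). Without the 2 conditions farthest from each member's median the r values of these 15 pairs were lower in each case, and lowest for *Smad4* and *Hip1r* (0.70). For *Smad9*, whose values lie near the constant of 0.1, *Txnrd3* (0.87), *Mcrs1* (0.80) and *Eif4ebp1* (0.79) were nearest, and these r values rest on levels at the lower limit of the tables.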

How the data were processed

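FPKM values were deposited by the authors in 9 tables, 1 for the F1G4 WT course and 8 that each pair a KO line with its WT cells. The authors trimmed strand-specific paired-end reads with cutadapt (version 2.9), aligned them with HISAT2 (version 2.1.0) to mm10 and computed FPKM with Cuffdiff (version 2.2.1) on refSeq genes, with multi-read and bias correction. Each column pools its condition, so no SD, n or test was computed and depth is unknown.

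Members were found by symbol. The members and the gene lists were chosen with earlier results of these data known. Ratios were taken within a table and without a pseudocount, and levels of F1G4 WT cells from the time-course table. The F1G4 WT columns of the KO tables were multiples of the time-course columns (median factors 0.989 to 1.04), within 2% for all but 15 or 16 of the genes above FPKM 1. Named were the 6 members, *Smad6* and *Smad7* and the targeted genes in all comparisons, at most 6 pathway genes past the rule per comparison by size, and the 3 genes most like each member. *Bambi*, *Bmpr1a*, *Tgfbr1* and pathway genes of lower rank were named after their values were seen, and some genes of the lists are counted but not reported here by name. Likeness was computed on log2(FPKM + 0.1). Repeated gene names (4 rows of the time course) were left out. Adjustments for GC content and transcript length centred genes on the median of 20 equal groups and were added after seeing the data. The code of the call rule was run on simulated columns without noise, with changes set larger than the rule requires. Its outcome was fixed in advance and gives no error rate for these data. Software was matplotlib 3.10.9, numpy 2.4.6, pandas 2.3.3, Python 3.11.15 and scipy 1.17.1.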

Additional observations from a re-analysis of the deposited data

Results flagged for a closer look

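In the *Eomes* KO, *Smad3* lay below WT on day 2 (log2 ratio −0.25) and above it on day 3 (1.18), opposite directions on the 2 days with a difference of 1.43 on the log2 scale. Each day has 1 value per line, and the difference was not tested.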

How the results depend on the processing

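Of 55 log2 ratios of the 5 examined members, those to WT and those to ES, 54 kept their side of the 2-fold rule under every alternative. The exception was *Smad1* on day 3 of the WT course, which passed the rule when columns were rescaled to a common sum (TPM; log2 ratio 1.09), relative to genes of like GC content (1.02) and relative to genes of like transcript length (1.01). TPM shifted the median log2 ratio of all examined genes to −0.42 in the dKO on day 2 and to 0.24 in the *Eomes* KO on day 3. BMP-branch shares without *Smad9*, and ratios of highest to lowest FPKM in the 10 conditions of F1G4 cells or as TPM, stayed within 1.5 times. Counts of called pathway genes moved by more than that without an FPKM minimum (20 on day 1 of the WT course, 8 in the *Eomes* KO, 8 in the *T* KO and 9 in the dKO on day 2), with a minimum of 5 (9 in the *Smad4* KO on day 1 and 5 in the *T* KO on day 3), with a pseudocount of 1 (3 in the *T* KO on day 2 and 5 in the dKO on day 3) and as TPM (9 in the dKO on day 2). Fewer or more genes are examined under other minimums; for the rest the cause was not tested. For *Smad4* and *Itgb8* no r was computed in F1G4 cells alone, where *Itgb8* stayed under FPKM 5. No paired analysis was possible because each column pools its condition, and for the same reason no replicate could be left out. The number of libraries behind a KO value is unclear, and small differences cannot be told from the spread between cultures.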
